A study of Mus musculus with 12 samples.

Results

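The amino acid transporters of the liver were followed in an array study of adrenalectomized mice given dexamethasone. Of the genes in this group, 10 were chosen by name: Slc7a2, Slc7a5, Slc7a11, Slc3a2, Slc38a2, Slc38a3, Slc38a4, Slc1a4, Slc43a1 and Slc6a9. Matching the gene names of the array design gave 19 probes for them, among 41174 probes and 27670 genes on the array. Of these, 15 probes and 9 genes passed the filter on dim probes and were tested together with 19340 genes in all, and Slc7a11 did not pass. Livers came from C57BL/6 mice aged 11 weeks, each without adrenal glands, so that the vehicle animals also lacked their main source of glucocorticoid. Males and females in diestrous 1 received phosphate buffered saline or 1 mg/kg dexamethasone, a synthetic glucocorticoid, into the abdominal cavity, and tissue was collected after 6 h. The 4 groups held 3 animals each, described as biological replicates, and each animal's Cy3-labelled RNA went onto 1 single-colour Agilent array.

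Amino acids cross the plasma membrane through solute carriers, each with its own range of substrates and its own coupling to ions or to exchange. The liver takes up alanine, glutamine, glycine and other amino acids from the portal blood for gluconeogenesis, urea synthesis and protein synthesis, and glucocorticoids are known to raise amino acid uptake by hepatocytes. Several carriers in this group belong to the amino acid response, in which the transcription factor ATF4 binds a composite C/EBP-ATF site in target genes when amino acids are short.

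All levels below are log2 processed signals relative to the 75th percentile of the same array, so a level of 0 lies at that percentile. Levels of different probes cannot be set against each other, because probes differ in brightness. Differences are given on the log2 scale with the standard error of the limma fit to all 12 arrays (n = 3 per group). P-values carry the Benjamini-Hochberg adjustment over all genes. A gene was called when its adjusted p was under 0.05. The 75th percentile of signal ran from 578.2 to 1251 intensity units over the 12 arrays, no member's probe was saturated, and arrays of 1 group correlated at 0.984 to 0.994. The hepatocyte markers on the array (5 of 6, without Serpina1c) were above background, and the treatment check genes Fkbp5, Tat and Tsc22d3 rose in both sexes, while Sgk1 rose in males (2.25 ± 0.64, adjusted p = 0.0283) and was at 0.78 ± 0.64 in females (adjusted p = 0.473). Its female levels were 1.85, 2.01 and 1.22 after vehicle and 1.97, 1.44 and 4.02 after dexamethasone, and without dexamethasone animal 3 the female difference was 0.01 (adjusted p = 0.993). All male vehicle arrays sat at slide position 1 and no male dexamethasone array did, so in males position and treatment cannot be told apart. In females positions 3 and 4 held both treatments, and Slc7a2 read 1.09 after vehicle and 2.71 after dexamethasone at position 3, and 1.67 against 2.72 and 3.16 at position 4. Whole liver was measured, so fewer cells of a type and less RNA per cell cannot be told apart either.

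In males dexamethasone raised 3 of the 9 tested members and lowered 1, and 5 did not pass, where 22.5% of all genes were called (10.4% higher and 12.1% lower). Slc7a2, Slc43a1 and Slc38a2 rose and Slc1a4 fell. Females also had 3 members higher and 1 lower, with 13.7% of all genes called (6.79% higher and 6.88% lower). There Slc7a2, Slc43a1 and Slc6a9 rose and Slc38a3 fell. The median difference over the 9 members was 0.24 in males and 0.04 in females, against 0.01 and 0.02 over all genes tested. Slc7a2 and Slc43a1 were thus the members called in each sex by itself, and those effects rest on separate animals with 1 shared estimate of spread. The male count was 2 without male dexamethasone 3, male vehicle 1 or male vehicle 2, and the female count was 2 without female vehicle 1.

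**Figure D1:**
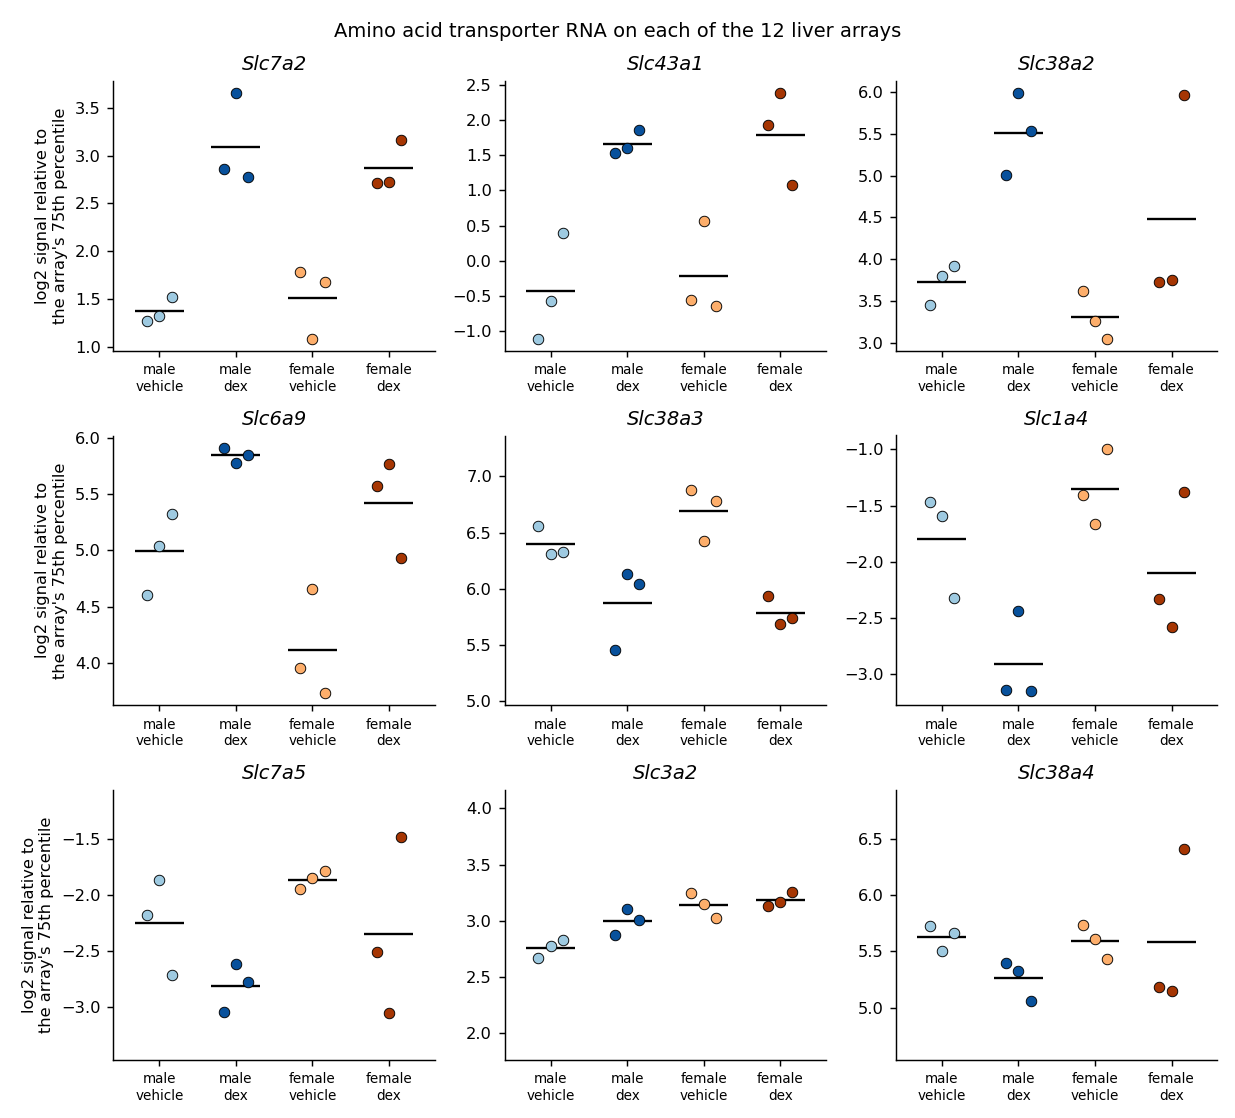
Level of 9 amino acid transporter genes on each array (vertical axis, log2 processed signal relative to the array's 75th percentile) by group (horizontal axis); points are animals and bars the means of 3. The groups of each sex do not overlap for Slc7a2, Slc43a1, Slc38a2, Slc6a9 and Slc38a3, as for 43.5% of all genes in males and 30.9% in females. Female dexamethasone 3 lies above the other treated females for Slc7a2, Slc38a2, Slc38a4, Slc7a5, Slc1a4 and, narrowly, Slc3a2, and below them for Slc43a1 and Slc6a9.

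Each of Slc7a2, Slc43a1, Slc6a9 and Slc38a3 was read by a single 60-base probe, while Slc38a2 had 4. The first 30 bases of the probes behind the higher values are given as the files hold them, because the Slc38a2 results turn on which of its probes is read. Positions are those of the array design on mouse build mm7. The exons and untranslated regions of that build were not used here. On the minus strand, the AK164568 probes of Slc38a2 lie towards the start of the gene relative to the NM_175121 probes.
Slc7a2 A_52_P77764, chr8:39701203-39701262, plus strand: ttttttactgtggacaaaaaagacacagat
Slc43a1 A_51_P362483, chr2:84706828-84706887, plus strand: tcgtgttcatagagccgggttctgtggatt
Slc6a9 A_51_P351872, chr4:117245669-117245728, plus strand: cgccgctgcccagtgtgtgcagaactaggg
Slc38a2 A_51_P458384, NM_175121, chr15:96689459-96689518, minus strand: aaggttccaaatgaatttcaggccaaattc
Slc38a2 A_52_P676686, NM_175121, chr15:96691104-96691163, minus strand: ttgaatgtgcctaacggaaccattcgatgt
Slc38a2 A_51_P199314, AK164568, chr15:96698390-96698449, minus strand: tgtgacagttgagaaattttggttagttga
Slc38a2 A_52_P459046, AK164568, chr15:96699481-96699540, minus strand: caaagaatagtgttacttttagatttcaaa

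Slc7a2 encodes a carrier of the cationic amino acids arginine, lysine and ornithine, and its liver isoform is known for low affinity and high capacity. In males its level was 1.27, 1.33 and 1.52 on the vehicle arrays and 2.86, 3.65 and 2.78 on the dexamethasone arrays. In females it was 1.78, 1.09 and 1.67 after vehicle and 2.71, 2.72 and 3.16 after dexamethasone. In each sex the 3 dexamethasone arrays lay above the 3 vehicle arrays. Within a sex, the groups did not overlap for 43.5% of all genes in males and 30.9% in females. Slc7a2 rose by 1.72 ± 0.26 in males, a 3.30-fold difference (adjusted p = 0.00143), and by 1.35 ± 0.26 in females, a 2.55-fold difference (adjusted p = 0.00793). Within the slides that held both groups, the difference was 2.38 on slide 1 and 1.49 on slide 3 in males, and 1.64 on slide 1 and 1.15 on slide 2 in females. With slide as a block the adjusted p was 0.00416 in males and 0.0282 in females. Leaving out any 1 of the 12 arrays kept both calls, with adjusted p up to 0.00846 in males and 0.0246 in females.

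Slc43a1 encodes LAT3, a facilitated carrier of leucine and other large neutral amino acids. On the male arrays its level was −1.11, −0.57 and 0.39 after vehicle and 1.53, 1.60 and 1.86 after dexamethasone. The female levels were −0.56, 0.57 and −0.65 after vehicle and 1.93, 2.38 and 1.07 after dexamethasone. Here too the groups of each sex did not overlap, as for 43.5% of all genes in males and 30.9% in females. Vehicle animals had more spread than for Slc7a2. The gene rose by 2.09 ± 0.44 in males (4.26-fold, adjusted p = 0.00786) and by 2.01 ± 0.44 in females (4.02-fold, adjusted p = 0.0149), the largest difference among the members' brightest probes in each sex. With slide as a block the adjusted p was 0.022 in males and 0.0449 in females. The within-slide differences were 2.71 and 2.26 in males and 1.81 and 2.06 in females. The female call was lost without female dexamethasone 2 (adjusted p = 0.054), female vehicle 1 (0.0574) or female vehicle 3 (0.0539), with differences of 1.71, 1.83 and 1.79.

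Slc38a2 encodes SNAT2, a sodium-coupled carrier of alanine, glutamine and other small neutral amino acids, and is itself a known gene of the amino acid response. Its brightest probe, A_51_P458384, read 3.46, 3.80 and 3.92 on the male vehicle arrays and 5.0, 5.98 and 5.54 on the male dexamethasone arrays. On the female arrays it read 3.62, 3.27 and 3.06 after vehicle and 3.73, 3.75 and 5.96 after dexamethasone. The male groups were far apart, whereas in females dexamethasone animals 1 and 2 lay just above the highest vehicle animal and animal 3 reached the male dexamethasone levels. Groups did not overlap for 43.5% of all genes in males and 30.9% in females. The gene rose by 1.78 ± 0.51 in males (3.44-fold, adjusted p = 0.0307). The female difference of 1.17 ± 0.51 did not pass (adjusted p = 0.164, 95% interval 0.03 to 2.30). Within slides the male differences were 2.52 and 1.47 and the female ones 0.48 and 1.23. The male call was lost without male dexamethasone 2 or 3 or any of the 3 male vehicle arrays, with differences of 1.54 to 1.88 and adjusted p up to 0.103. Without female dexamethasone 3 the female difference was 0.43 (adjusted p = 0.356) and the male adjusted p was 0.00109.

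Of the other 3 probes for Slc38a2, 1 was called in females and 2 in males. Probe A_52_P676686, on the same transcript, read 0.79, 0.96 and 0.78 on the female vehicle arrays and 2.08, 2.19 and 3.44 on the female dexamethasone arrays, so that each treated female lay well above each control. Its differences were 2.01 ± 0.32 in males (adjusted p = 0.00173) and 1.73 ± 0.32 in females (adjusted p = 0.00639), both past the threshold when adjusted over all 28842 probes, of which 22.6% and 13.7% were called. The AK164568 probe A_51_P199314 gave 1.82 ± 0.34 in males (adjusted p = 0.00372) and 0.98 ± 0.34 in females (adjusted p = 0.0792). Probe A_52_P459046 gave 1.29 ± 0.51 in males (adjusted p = 0.0955) and 0.45 ± 0.51 in females (adjusted p = 0.619), with overlapping female groups. All 4 probes put female dexamethasone 3 highest among the females. For the brightest probe that array lay 2.22 above the mean of the other two, a gap met or passed by 0.703% of the genes tested on the same array. Over the 12 arrays the share of genes that lay more than 1 from the mean of the other two ran from 1.84% to 8.57%, and it was 7.80% on female dexamethasone 3.

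**Figure D2:**
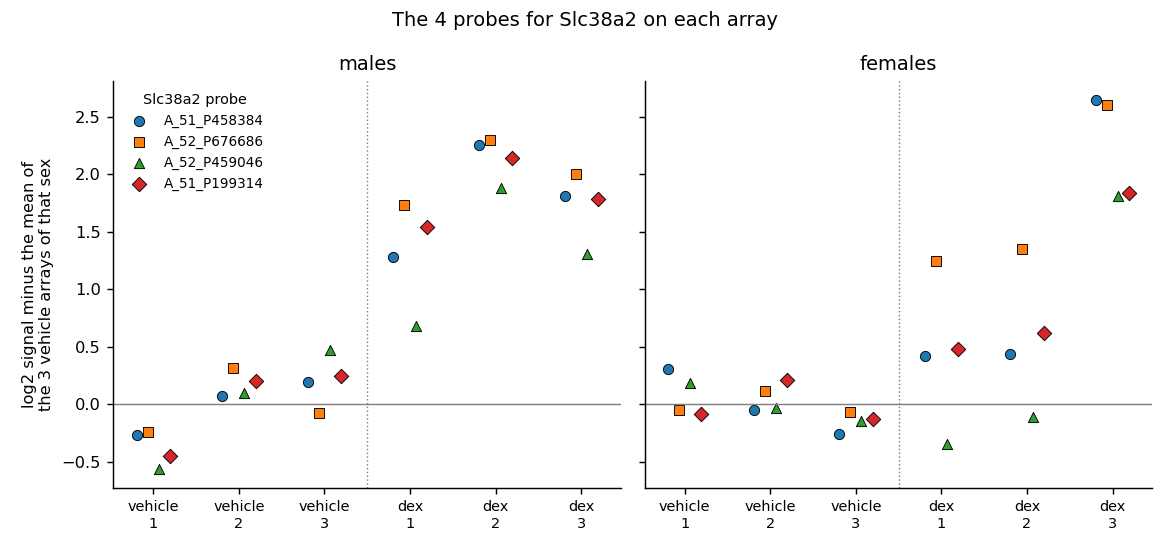
The 4 probes for Slc38a2, each as its log2 level minus the mean of the 3 vehicle arrays of the same sex (vertical axis), on the 6 male and 6 female arrays (horizontal axis). All 4 probes are higher on the 3 male dexamethasone arrays, and among females all 4 peak on dexamethasone 3; A_51_P458384, A_51_P199314 and A_52_P676686 also lie above every female vehicle array on dexamethasone 1 and 2, A_52_P676686 by the most.

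Slc6a9 encodes GLYT1, a sodium- and chloride-coupled glycine carrier. In males its level was 4.60, 5.04 and 5.33 after vehicle and 5.91, 5.78 and 5.84 after dexamethasone. Female levels were 3.95, 4.66 and 3.73 after vehicle and 5.57, 5.77 and 4.93 after dexamethasone. In neither sex did the groups overlap, which held for 43.5% of all genes in males and 30.9% in females. The gene rose by 1.31 ± 0.28 in females (2.49-fold, adjusted p = 0.013). The male difference of 0.85 ± 0.28 had adjusted p = 0.0512 and did not pass. Fitted on the 6 arrays of a sex alone, the calls changed places, with adjusted p = 0.0606 in females and 0.0265 in males, and with the shared spread the male difference also passed in 4 of the 12 fits that left out 1 array.

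Slc38a3 encodes SNAT3, the system N carrier of glutamine and histidine that is abundant in liver. Its male level was 6.56, 6.31 and 6.32 after vehicle and 5.45, 6.13 and 6.04 after dexamethasone. Among females it was 6.88, 6.42 and 6.78 after vehicle and 5.94, 5.68 and 5.74 after dexamethasone. Each treated animal lay below every control of its sex, and groups did not overlap for 43.5% of all genes in males and 30.9% in females. Slc38a3 fell by 0.91 ± 0.19 in females (1.87-fold lower, adjusted p = 0.0126). That call was lost without female vehicle 1, where the difference was −0.81 with adjusted p = 0.0507. In males the difference of −0.53 ± 0.19 (95% interval −0.95 to −0.10) did not pass over all genes, with adjusted p = 0.0752.

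Slc1a4 encodes ASCT1, a sodium-dependent exchanger of alanine, serine, cysteine and threonine. The male levels were −1.47, −1.60 and −2.32 after vehicle and −3.14, −2.43 and −3.15 after dexamethasone. Those of females were −1.41, −1.66 and −1.0 after vehicle and −2.33, −2.58 and −1.38 after dexamethasone, where the groups overlapped through female dexamethasone 3. Slc1a4 fell by 1.11 ± 0.35 in males (2.16-fold lower, adjusted p = 0.0419), and the female difference was −0.74 ± 0.35 (adjusted p = 0.192). A second probe, A_52_P273098, gave −1.20 ± 0.32 in males (adjusted p = 0.0225) and −0.65 ± 0.32 in females (adjusted p = 0.213). The male call did not hold with slide as a block (−1.14, adjusted p = 0.0893), and normexp background correction gave −0.19 (adjusted p = 0.786), or −0.63 with capped local background (adjusted p = 0.117). It was also lost in 6 of the 12 fits that left out 1 array (adjusted p up to 0.146), namely those without male dexamethasone 1 or 3, male vehicle 1 or 2, female dexamethasone 1 or female vehicle 1. Without female dexamethasone 3 the female difference was −1.10 with adjusted p = 0.0494, and only this 1 of the 12 fits without 1 array passed.

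Slc7a5 and Slc3a2 encode the light chain LAT1 and the heavy chain 4F2hc of a heterodimeric exchanger of large neutral amino acids, and the heavy chain also pairs with other light chains. Slc7a5 read −2.18, −1.86 and −2.71 on male vehicle arrays, −3.04, −2.61 and −2.78 on male dexamethasone arrays, −1.95, −1.85 and −1.79 on female vehicle arrays and −2.51, −3.05 and −1.48 on female dexamethasone arrays. The groups overlapped in both sexes. The differences of −0.56 ± 0.34 in males (95% interval −1.32 to 0.20, adjusted p = 0.281) and −0.48 ± 0.34 in females (−1.24 to 0.28, adjusted p = 0.403) did not pass. Without female dexamethasone 3 the female difference was −0.92 with adjusted p = 0.044, and only this 1 of the 12 fits without 1 array passed.

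The heavy chain gene Slc3a2 read 2.67, 2.78 and 2.83 on male vehicle arrays, 2.88, 3.1 and 3.01 on male dexamethasone arrays, 3.25, 3.15 and 3.02 on female vehicle arrays and 3.13, 3.17 and 3.26 on female dexamethasone arrays. Its standard error was the smallest of the 9. Its differences were 0.24 ± 0.11 in males (95% interval −0.01 to 0.49, adjusted p = 0.166) and 0.04 ± 0.11 in females (−0.21 to 0.30, adjusted p = 0.854). A second, dimmer probe had the opposite sign, at −0.27 ± 0.18 in males and −0.10 ± 0.18 in females, and correlated with the first at r = 0.518 over the 12 arrays. Neither probe gave a called difference, so no direction can be read for the heavy chain.

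Slc38a4 encodes SNAT4, a sodium-coupled carrier of neutral amino acids that is strongly expressed in liver. Its male levels were 5.73, 5.51 and 5.66 after vehicle and 5.39, 5.33 and 5.06 after dexamethasone, without overlap, as for 43.5% of all genes. Female levels were 5.74, 5.61 and 5.44 after vehicle and 5.18, 5.14 and 6.41 after dexamethasone. The first 2 treated females lay below all controls and the third lay above them, 1.25 higher than the mean of the other two. Neither difference passed, at −0.37 ± 0.29 in males (adjusted p = 0.401) and −0.01 ± 0.29 in females (adjusted p = 0.984), and without female dexamethasone 3 the female value was −0.43 (adjusted p = 0.0878). The second probe, which the design places across 2676 bases of mm7, gave −0.27 in males and 0.20 in females and was not called either.

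Slc7a11 encodes xCT, the light chain of the cystine-glutamate exchanger that pairs with the heavy chain of Slc3a2. None of its 4 probes was well above background on any of the 12 arrays. The highest of them reached between −9.14 and −7.89 on an array, while the lowest level of any probe well above background was −7.04 to −6.04. Slc7a11 RNA was therefore not detectable with these probes in any group, and no difference was tested with the filter on dim probes. Its RefSeq promoter window is shown beside the one of Slc1a4, because these were the 2 of 11 member windows that held the core of the amino acid response site.

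**Figure D3:**
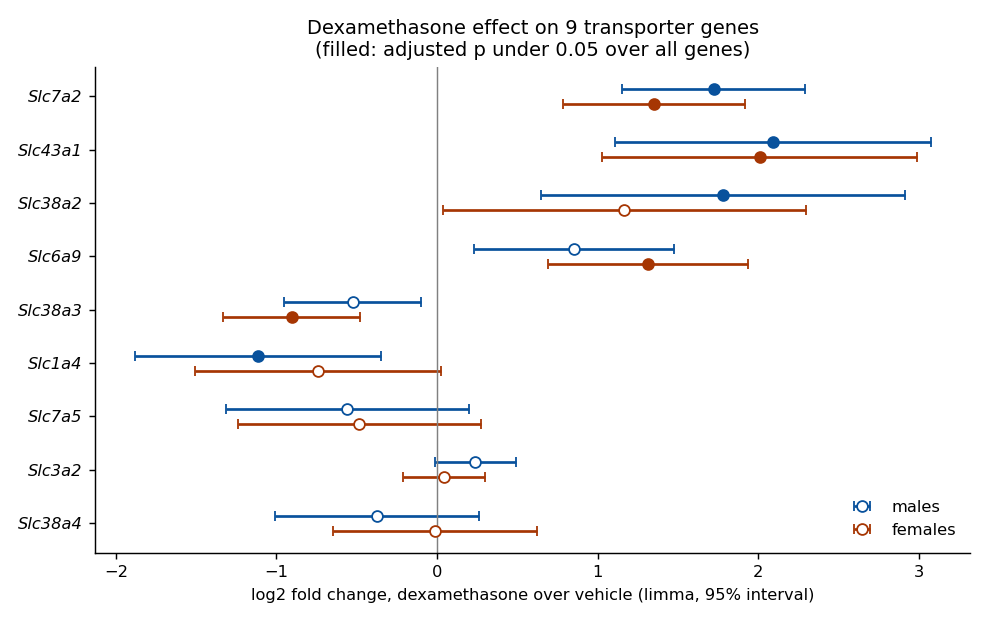
Log2 fold change of dexamethasone over vehicle (horizontal axis) with its 95% interval from limma for 9 transporter genes (vertical axis), in males and females; filled points had an adjusted p under 0.05. Slc7a2 and Slc43a1 are filled in both sexes, and the male and female intervals overlap for each gene.

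Promoter windows of 250 bases before and 50 after the start were held in the RefSeq table of assembly GRCm38.p6 for 7 of the 10 members, in 11 windows. The consensus palindrome of the glucocorticoid response element was in 0 of these 11 on either strand and in 0.009% of all 32851 windows. Its right arm TGTTCT, which is part of that palindrome, was in 2 of the 11, for Slc7a11 and for 1 of the 3 windows of Slc38a4, against 18.974% of all windows. The core TGATGNAA, on either strand, was in 2 of the 11 and in 3.969% of all windows. In Slc7a11 it occurred on both strands, and in Slc1a4 the match ran across the start. The 250 bases before the start are printed with the matches to TGATGNAA and TGTTCT in capitals. In Slc1a4 only the first 4 bases of the match lie within them, and Slc38a2, which rose in males, is shown as a window without a match.
Slc7a11, GRCm38.p6 chr3:50443614-50443863, minus strand: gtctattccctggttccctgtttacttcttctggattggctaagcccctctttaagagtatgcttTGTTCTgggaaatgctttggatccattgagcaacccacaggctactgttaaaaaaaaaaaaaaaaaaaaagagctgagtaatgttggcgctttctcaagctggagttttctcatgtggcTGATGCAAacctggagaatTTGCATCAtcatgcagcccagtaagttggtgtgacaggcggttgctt
Slc1a4, GRCm38.p6 chr11:20332714-20332963, minus strand: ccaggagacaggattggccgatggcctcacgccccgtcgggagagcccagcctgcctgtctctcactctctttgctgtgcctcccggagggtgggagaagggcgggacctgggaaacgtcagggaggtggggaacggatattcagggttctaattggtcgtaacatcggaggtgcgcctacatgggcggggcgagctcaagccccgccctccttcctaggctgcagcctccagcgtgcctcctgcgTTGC
Slc38a2, GRCm38.p6 chr15:96699729-96699978, minus strand: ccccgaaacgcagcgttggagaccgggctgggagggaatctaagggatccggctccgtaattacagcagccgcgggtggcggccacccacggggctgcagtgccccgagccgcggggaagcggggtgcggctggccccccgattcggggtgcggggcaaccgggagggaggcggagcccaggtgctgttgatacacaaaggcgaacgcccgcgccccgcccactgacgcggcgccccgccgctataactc
No window of Slc43a1 or Slc6a9, both called higher in females, matched any of the 3 motifs. A match, or its absence, describes the letters of these short windows.

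The study's crossed design also asks whether the sexes differ. For no member did the female effect differ from the male effect past the threshold (adjusted p = 0.9998 for each of the 9), and by the same limma test 1 gene of 19340 was called (0.00517%), with 1033 at an unadjusted p under 0.05. The differences between the effects ran from −0.61 for Slc38a2 (95% interval −2.22 to 0.99) to 0.46 for Slc6a9 (−0.42 to 1.34). Without female dexamethasone 3 the value for Slc38a2 was −1.36 (adjusted p = 0.245). These intervals are wide, so members called in 1 sex alone are not shown to respond in that sex alone. Averaging the effects of both sexes, a contrast added after the data were seen, called 6 of the 9 members, 4 higher and 2 lower, where 34.1% of all genes were called (16.6% higher and 17.4% lower). In that contrast Slc43a1 was at 2.05 ± 0.31 (adjusted p = 0.000765), Slc7a2 at 1.54 ± 0.18 (0.000177), Slc38a2 at 1.47 ± 0.36 (0.00992) and Slc6a9 at 1.08 ± 0.20 (0.00207). Slc1a4 was at −0.93 ± 0.25 (adjusted p = 0.0143) and Slc38a3 at −0.72 ± 0.14 (0.00256).

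Between males and females no member was called under vehicle, where 1.97% of all genes were, nor under dexamethasone, where 5.81% were. The largest differences in each direction under vehicle, as females minus males, were −0.88 ± 0.28 for Slc6a9 (adjusted p = 0.175) and 0.44 ± 0.35 for Slc1a4 (adjusted p = 0.635). For Slc6a9 the highest female control, at 4.66, lay above the lowest male control, at 4.60, and within slides the difference was 0.05, −1.38 and −1.31. The difference of 0.38 ± 0.11 for Slc3a2 did not pass either (adjusted p = 0.145). Under dexamethasone the largest difference by brightest probes was that of Slc38a2, at −1.03 ± 0.51 (adjusted p = 0.27). Without female dexamethasone 3 it was −1.77 with adjusted p = 0.00756. Of the 12 fits that left out 1 array, only this 1 passed, and adjusted p reached 0.573 in the others. The second probe for Slc1a4 gave 1.23 ± 0.32 (adjusted p = 0.0532 over all probes). Under dexamethasone only slide 1 held both sexes.

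Other amino acid transporters were taken from a list of 52 genes, of which 51 were on the array and 37 passed the filter on dim probes. Of these, 6 rose and 7 fell in males, with 24 not past the threshold (median 0.12), and 5 rose and 1 fell in females, with 31 not past it (median −0.01), beside the 22.5% and 13.7% of all genes called in males and females. Called the same way in males and females were Slc25a15, Slc7a3, Slc25a13 and Slc36a1. Slc25a15, the mitochondrial ornithine carrier of the urea cycle, read 0.46 to 0.79 on male vehicle arrays, 2.14 to 3.1 on male dexamethasone arrays, 0.21 to 1.29 on female vehicle arrays and 2.76 to 4.07 on female dexamethasone arrays. It rose by 2.08 ± 0.39 in males (adjusted p = 0.00408) and by 2.60 ± 0.39 in females (adjusted p = 0.00254). Slc25a13, the mitochondrial aspartate-glutamate carrier citrin, rose by 0.82 ± 0.16 (adjusted p = 0.00481) and 0.90 ± 0.16 (adjusted p = 0.00545).

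On the plasma membrane, Slc7a3, a cationic amino acid carrier like Slc7a2, rose by 1.32 ± 0.19 in males (adjusted p = 0.00123) and 1.68 ± 0.19 in females (adjusted p = 0.000641), from low levels of −6.23 to −5.81 on the 6 vehicle arrays. These lay near the limit of detection: the lowest level of any probe well above background on those arrays was −6.76 to −6.33. Slc7a1, the general cationic carrier, did not pass, at 0.21 ± 0.35 in males (adjusted p = 0.724) and 0.03 ± 0.35 in females (adjusted p = 0.968). Slc36a1, a proton-coupled carrier of small amino acids, fell by 1.58 ± 0.26 in males (adjusted p = 0.00236) and 1.41 ± 0.26 in females (adjusted p = 0.00739). Slc3a1, the heavy chain of the cystine and dibasic amino acid exchanger, did not pass in either sex, at −0.03 ± 0.48 in males (adjusted p = 0.975) and 0.45 ± 0.48 in females (adjusted p = 0.595). By sex, 3 of the 37 were called under dexamethasone, where 5.81% of all genes were. Slc1a3 was higher in females by 1.06 (adjusted p = 0.0404), and the differences of Slc7a6 and Slc7a9 were −2.63 (0.00793) and −1.07 (0.0428). Slc1a3 was above background on 1 of 3 male dexamethasone arrays, and Slc7a6 was the 1 of the 3 still called in the fits without any 1 male array or without female dexamethasone 1 or 2.

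**Figure D4:**
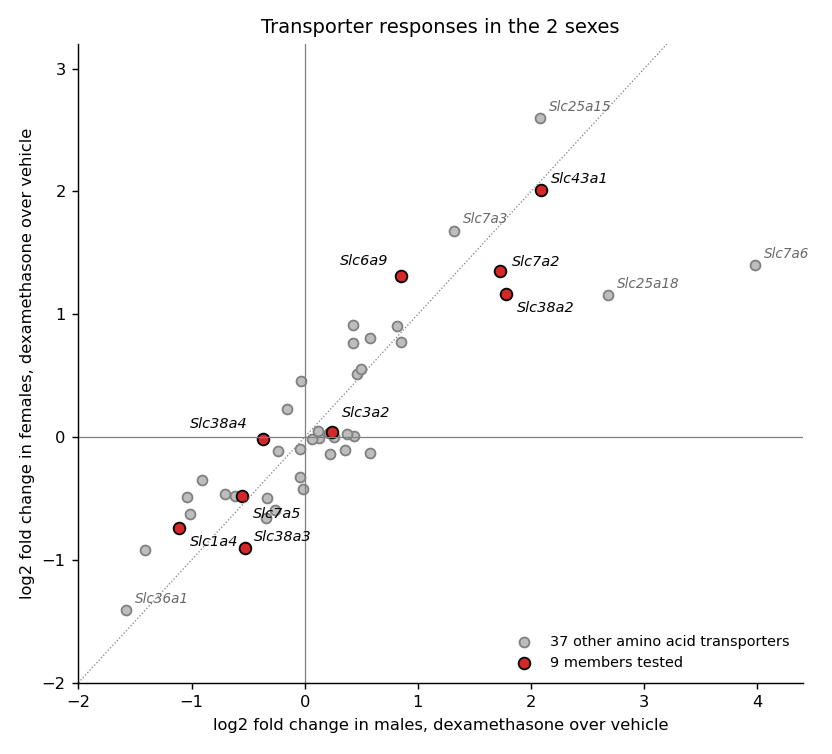
Log2 fold change of dexamethasone over vehicle in males (horizontal axis) and females (vertical axis) for the 9 members tested and 37 other amino acid transporters, one point a gene, with a dotted line of equal effects. Slc43a1 and Slc25a15 lie highest near that line, while Slc7a6, at 3.98 in males and 1.40 in females, lies far to its right and was above background on 1 of 3 vehicle arrays in each sex; that gene and Slc25a18 were picked for labelling after their values were seen.

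Of 9 genes of the amino acid response and serine synthesis, in males Asns (asparagine synthetase, 1.59 ± 0.30, adjusted p = 0.00424) rose and Phgdh (phosphoglycerate dehydrogenase, −0.71 ± 0.22, adjusted p = 0.0388) fell, while 7 did not pass. In females Chac1, which encodes a glutathione-degrading enzyme, rose by 1.57 ± 0.44 (adjusted p = 0.0421) and 8 did not pass, among them Asns at 0.01 ± 0.30. Chac1 did not pass in males, but read 1.63, 1.71 and 1.78 after vehicle and 2.89, 2.11 and 3.19 after dexamethasone. A call in 1 sex alone does not show a response in that sex alone. Asns read 1.52, 2.19 and 1.41 on male vehicle arrays and −1.50, −1.82 and −1.87 on female vehicle arrays, so the sexes started from different levels. The regulator gene Atf4 was at 0.33 ± 0.14 in males (adjusted p = 0.114) and −0.23 ± 0.14 in females (adjusted p = 0.306). Over all genes 22.5% were called in males and 13.7% in females.

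Among all genes with a usable symbol, those whose levels ran most alike with a called member over the 12 arrays were listed with Pearson's r, as a description that both treatment and array shape. Slc7a2 ran most like Dnajc7 (r = 0.994) and Irf2bp2 (0.981), and Slc38a2 most like Cebpb (0.972), which encodes a C/EBP transcription factor, and Birc6 (0.970). Slc43a1 ran most like Zfp35 (0.979) and Fgf1 (0.973), and Slc6a9 most like Rad23b (0.974) and Col7a1 (0.967). Of the members that fell, Slc38a3 ran most like Ralb (0.971) and Tspan4 (0.952), and Slc1a4 most like Col15a1 (0.948) and Fndc5 (0.946).

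Markers of several cell types were also called, beside 22.5% of all genes in males and 13.7% in females. In males a single call among 4 to 6 markers lies near that share. Each sum below is the log2 of the summed unlogged signals of a type's tested markers, so the brightest marker weighs most. Of 4 B cell markers, 2 fell in each sex. Their sum was −0.44 to 0.23 on male vehicle arrays and −2.25 to −1.47 on male dexamethasone arrays, with −0.46 to 0.87 and −1.89 to −0.76 in females. Of 5 hepatocyte markers tested, 3 rose in males and 2 in females, and their sum was at 9.92 to 10.03 and 10.43 to 10.54 in males, and at 9.84 to 10.04 and 10.22 to 10.37 in females, after vehicle and dexamethasone. All 3 adipocyte markers were above background, with 1 of 2 tested called higher in each sex. The sum of the 2 tested was 2.23 to 2.85 and 4.11 to 4.35 in males and 2.75 to 2.95 and 3.57 to 4.73 in females. In males 3 of 5 stellate cell and fibroblast markers also fell, with a sum of 5.20 to 5.42 after vehicle and 5.01 to 5.06 after dexamethasone, while in females 0 were called (5.33 to 5.54 and 5.52 to 5.70). Of 4 T and NK cell markers 2 fell in males, where the sum was −0.69 to −0.34 and −1.03 to −0.73, and 0 were called in females (−0.47 to 0.31 and −0.62 to −0.34). The 1 pancreatic acinar marker tested fell in males, where its level was −3.13 to −2.41 and −4.39 to −3.69. It was not called in females (−3.52 to −2.65 and −4.22 to −3.68). Of 6 Kupffer cell and macrophage markers 1 fell in males, with a sum of 4.8 to 5.58 and 4.4 to 4.83, and 0 were called in females (5.54 to 6.03 and 5.07 to 5.92). Of 5 endothelial markers 1 rose and 1 fell in males and 1 rose in females, with sums of 2.93 to 3.34 and 3.38 to 3.81, and 3.14 to 3.61 and 3.47 to 4.66. Of 4 cholangiocyte markers 1 rose in males (0.15 to 0.36 and 0.36 to 0.98) and 0 were called in females (0.08 to 0.51 and 0.13 to 0.60). The part of these shifts in the transporter values was not tested.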

How the data were processed

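Cy3-labelled liver RNA of 12 mice was measured on single-colour Agilent arrays. The authors quantified the scans with Agilent Feature Extraction 9.5, per the submitters' processing notes. The deposited processed signal is an intensity, per the file headers, background-subtracted and detrended by that software within each array. The deposited series values equalled it. Log2 values of these deposited intensities were scaled by subtracting the 75th percentile of an array's non-control spots. Outlier-flagged spots were left out and spots of a probe averaged. A probe was kept if well above background on all 3 arrays of a group (28842 of 41174), and the brightest probe stood for a gene (19340 genes). Names were updated with a RefSeq table of GRCm38.p6, and probe coordinates are those of the design file on mm7.

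Groups were compared with limma 3.58.1 in R 4.3.3, as 4 group means over 12 arrays with 8 residual degrees of freedom, empirical Bayes moderation and Benjamini-Hochberg adjustment at 0.05. Replicate numbers were not taken to pair the animals, and how animals were assigned is not given. Deviations from the group mean correlated at −0.22 to 0.33 for the same number and at −0.40 to 0.36 for different numbers. On simulated data for the male comparison, 49% of genes changed by 1 (log2) and 87% of those changed by 2 were recovered over 19340 genes. The simulated fit made 147 calls, 11 of them false, against 4359 calls in the real male comparison. The adjusted threshold depends on that share, so this recovery need not hold for the real data. Figures used matplotlib 3.10.9. Background correction, normalization, filters, probe choice, array weights, slide and replicate blocks and left-out arrays were alternatives. The members and gene lists were chosen with earlier results of these data known. The text names all members, the other transporters called the same way in both sexes or for the interaction, Slc7a1, Slc3a1, and fixed response and check genes; Slc1a3, Slc7a6, Slc7a9 and Slc25a18 were added after their values were seen.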

Additional observations from a re-analysis of the deposited data

How the results depend on the processing

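No member reversed its direction past the threshold. Of the fits of single members under other settings, 1010 kept their side of the threshold, 28 lost it and 18 gained it. Most of these fits were of differences not called at the start, which had no call to lose. Of the calls, that of Slc1a4 in males was kept in 13 of 24 fits and that of Slc38a2 in males in 19 of 26. The other calls were kept in 19 to 23 of 23 fits. Normexp background correction, which moved the median of all genes to 0.26 in males and 0.24 in females, left 1 member called in males and 0 in females, with 908 and 536 genes called in all. Under it 5 other transporters were called in males and 2 in females, and 0 differed by sex under dexamethasone. Array weights gave 1 member called by sex under vehicle (Slc6a9), 1 under dexamethasone (Slc38a2) and 10 other transporters in females. Without the filter on dim probes, 1 member was called for the interaction and 1 by sex under dexamethasone, both Slc7a11 (−0.91 and −0.71), which was below background throughout. That setting called 2278 genes for the interaction, and 3 and 6 other transporters in these comparisons. Of the 3 other transporters called by sex under dexamethasone, 1 was left with capped normexp, the 6 arrays alone or the replicate block (Slc7a6), and 1 with slide as a block or the filter on all 12 arrays (Slc7a9). Leaving out 1 array gave 2 to 5 members called in males, 2 to 6 in females, 0 to 1 by sex under dexamethasone, and 8 to 14 (males) and 1 to 3 (by sex under dexamethasone) other transporters. The replicate numbers were not taken to pair the animals. With a replicate block 3 members were called in males, without Slc1a4 (adjusted p = 0.0751), and 4 in females. Over all genes, the counts in males ranged from 2342 to 5026 without 1 array (lowest without male vehicle 1), and those in females from 1504 to 2568. In females, 4036 genes were called with array weights and 1180 with the 6 arrays alone. By sex under dexamethasone 244 were called with slide as a block and 703 with the replicate block, and 1123 otherwise. Precision is limited by the 3 arrays per group.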
